A study of Homo sapiens with 10 samples.

Results

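The extracellular matrix genes described here are the collagen chains outside the basement membrane group, the glycoproteins and proteoglycans laid down with them, and the enzymes that modify and crosslink them, measured in DU145 cells after knockdown of the transcription factor SOX4. They were chosen by symbol from the deposited table, by the name families of these proteins, leaving out the COL4A chains and COL7A1. The rule found 62 of the 13527 features of the table. RefSeq lists 94 protein-coding symbols that the same pattern matches, and the other 32, among them COL1A2, COL3A1, COL6A3, POSTN, THBS2 and VCAN, were not analysed here. One of the 62, MFAP1, shares only its name with the microfibril proteins, since it encodes a component of the spliceosome.

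DU145 is an established human prostate cancer cell line. The knockdown libraries came from DU145 cells carrying a short hairpin RNA against SOX4 (shSOX4, 3 libraries), and the control libraries from DU145 cells carrying a scrambled hairpin (shCon, 3 libraries), with no further treatment in either group. Cells of both groups grew in the same serum-containing medium, and the labels do not say how many hairpins or clones each line stands for. The series also holds ATAC-seq of cells with SOX4 overexpression and of vector cells, which were not analysed here.

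Fibril-forming collagens assemble outside the cell into the fibres that give connective tissue its strength, and fibril-associated collagens and small proteoglycans decorate and space those fibres. Fibrillins and fibulins build elastic microfibrils, which also hold latent TGF-beta through some of the latent TGF-beta binding proteins. Before secretion, prolyl and lysyl hydroxylases modify collagen chains in the endoplasmic reticulum, and lysyl oxidases and transglutaminase crosslink the deposited matrix. In the prostate this kind of matrix is made mainly by stromal cells, and carcinoma cells can also produce it.

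Total counts were 31189910 to 34784541 in the shSOX4 libraries and 36360205 to 43361609 in the shCon libraries, of which the 62 genes took 0.296 to 0.383% and 0.278 to 0.354%. SOX4 had 4.55, 6.44 and 6.01 CPM (counts scaled to a common library size with TMM; values are listed in the order of replicates 1, 2 and 3 throughout) in shSOX4, against 12.9, 10.1 and 8.48 CPM in shCon. Its log2 fold change was -0.89 (SE 0.236, adjusted p = 0.0111, edgeR), and -0.71 without shCon 1, where it no longer passed (adjusted p = 0.0598). On the second principal component of log2 CPM, with 15.7% of the variance, shSOX4 1 and shCon 3 scored 35.7 and 29.3 and the other 4 libraries -21.1 to -7.58. Over the 62 genes, the log2 level of these 2 libraries less their own group's mean had a median of 0.16, against -0.01 over all features. Counts led with below are therefore also given without both. Of 12 epithelial markers 9 were measured, with a summed level of 8965 to 10202 CPM in shSOX4 and 4588 to 7322 CPM in shCon, led by keratin genes. Of 12 fibroblast markers 3 were measured (PDGFRB and the collagen and proteoglycan genes COL1A1 and LUM described below), with 9.55 to 16.0 CPM in shSOX4 and 1.69 to 2.48 CPM in shCon. All 3 rose, PDGFRB with 4.58, 4.24 and 3.78 CPM in shSOX4, against 0.416, 1.05 and 0.612 CPM in shCon. PDGFRB and LUM reached 1 CPM throughout shSOX4 alone, and the deposited table holds only genes that reach it in at least 3 libraries, so the direction of these 2 was partly fixed by that filter. The part of other cells in the results was not tested, and in bulk RNA more cells of a type and more RNA per cell cannot be told apart.

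Of the 62 matrix genes, 27 rose and 13 fell in shSOX4 cells (adjusted p under 0.05), which is 64.5%, where 32.8% of all features were called. By direction, 43.5% of the matrix genes rose, where 17% of all features did, and 21% fell, where 15.8% did. The number of falls depended on single libraries. Without shSOX4 3, 6 genes fell (9.68%, against 9.53% of all features), and without shSOX4 2, 7 fell (11.3%, against 8.12%). In the fits that left out 1 library, 5 of the 13 falls and 20 of the 27 rises were called in all 6. Large rises made up much of the list. A rise of at least 1 on the log2 scale was found for 19 genes (30.6%, against 7.97% of all features) and one of at least 2 for 15 (24.2%, against 2.66%), while only MFAP2 and COL28A1 fell by at least 1 (3.23%, against 5.27%). The median log2 fold change was 0.38, against -0.01 over all features. The groups did not overlap for 45 of the 62 genes (72.6%), where 47% of all features had no overlap: shSOX4 lay above in 28 (45.2%, against 23.1% of all features) and below in 17 (27.4%, against 23.9%). Without shSOX4 1 and shCon 3, 28 rose (45.2%, against 21.4% of all features) and 12 fell (19.4%, against 19.5%). In that fit 40.9% of all features were called, and the share of falls was that of all features.

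These counts are a description of a table that had been filtered before deposition, since every feature has at least 1 CPM in at least 3 libraries. Of the 62, 49 reached that level in all 6 libraries, and among these 21 rose and 12 fell (42.9% and 24.5%, where 16% and 15.9% of the features at that level did). Another 8 reached it throughout shSOX4 alone (COL9A3, FBN1, MFAP3, MFAP5, SVEP1, SPOCK1, LUM and NID2) and 4 throughout shCon alone (COL11A2, COL28A1, COL8A2 and THBS4). For those 12 the filter itself favours a difference in that direction. SPOCK2 reached it in 3 libraries of mixed groups. Among the 8, COL9A3, FBN1, MFAP5, SVEP1, SPOCK1 and LUM rose by at least 2 on the log2 scale. The shares of large rises given above therefore carry this limit. The median log2 fold change of the 49 was 0.27.

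**Figure D1:**
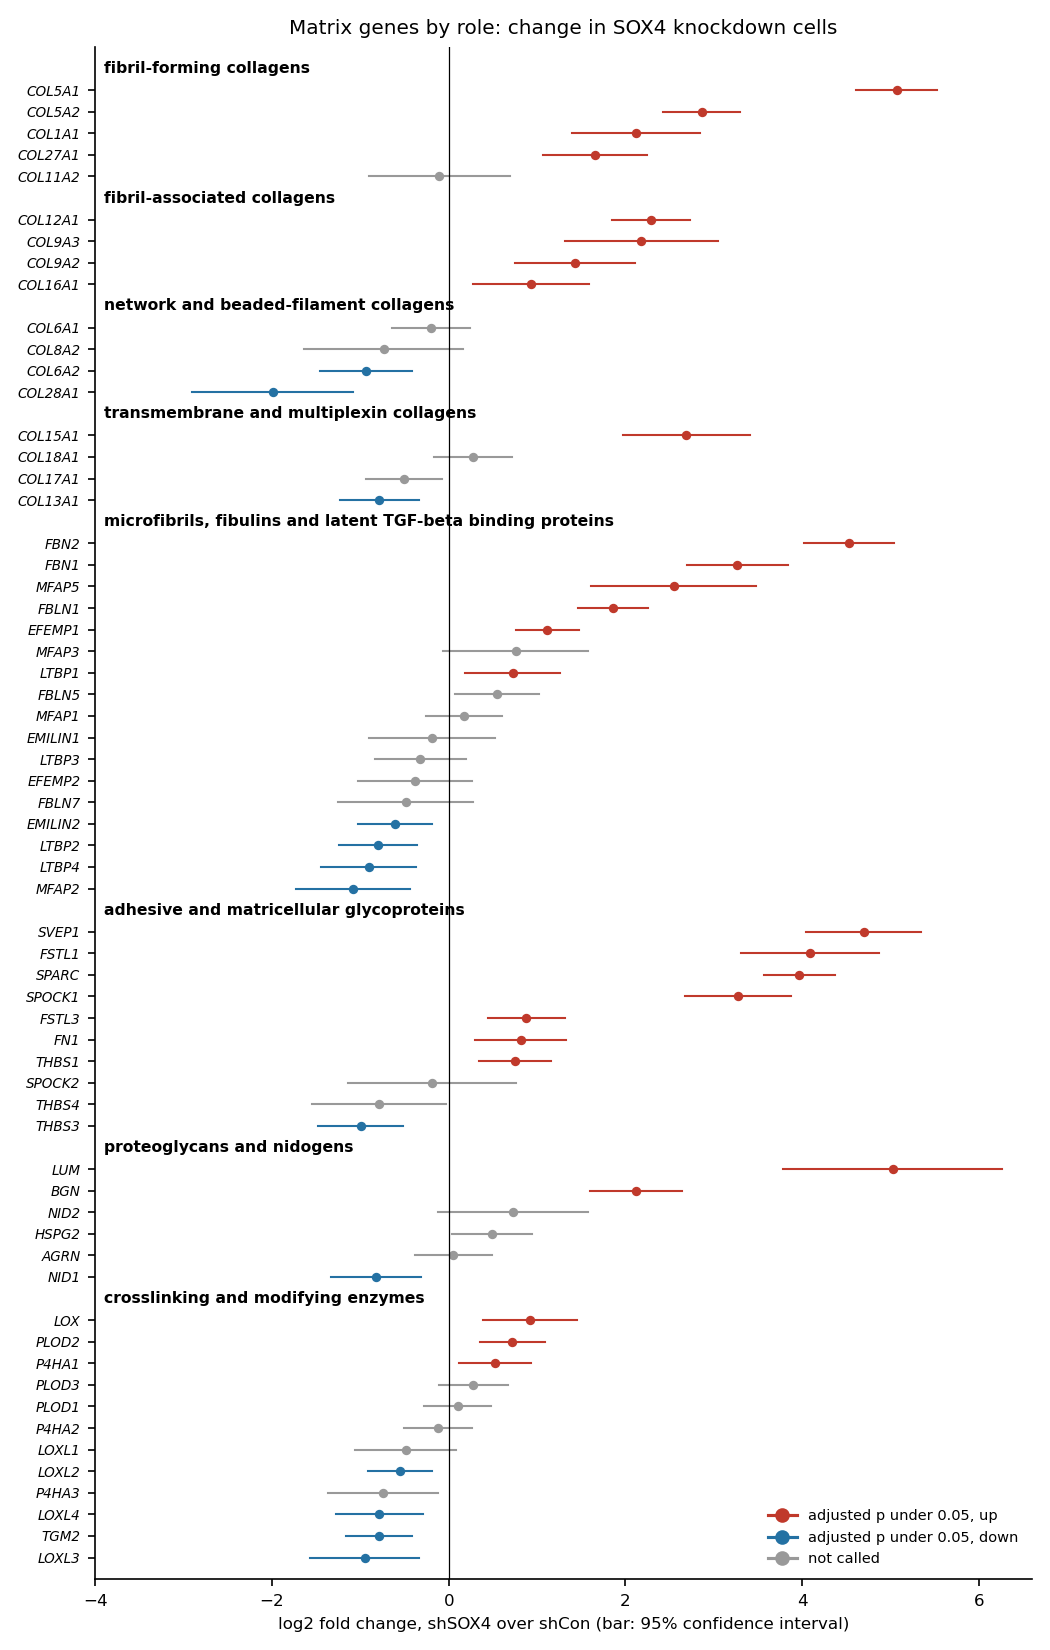
Log2 fold change of shSOX4 over shCon (x axis) for each of the 62 matrix genes, grouped by role, with the 95% confidence interval as a bar and the call as colour. Rises reach 5.07 (COL5A1), and the largest fall is -1.99 (COL28A1); the fibril-forming and fibril-associated collagens lie to the right except COL11A2.

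The fibril-forming collagens rose in 4 of 5 cases with none down, where 17% of all features rose and 15.8% fell. COL5A1 (ENSG00000130635, chromosome 9), a chain of type V collagen, which starts fibrils and limits their diameter, had 101, 86.4 and 77.6 CPM in shSOX4, against 2.85, 2.55 and 2.48 CPM in shCon. The lowest shSOX4 library lay far above the highest shCon library, and the gene rose by 5.07 on the log2 scale (SE 0.213, 95% interval 4.61 to 5.53, adjusted p = 6.9e-09, edgeR), a 33.6-fold difference. COL5A2 (chromosome 2), its partner chain, had 43.6, 46.9 and 40.2 CPM in shSOX4, against 6.86, 6.15 and 4.93 CPM in shCon, and rose by 2.86 (SE 0.203, adjusted p = 2.67e-07). Both groups were tight for both chains.

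COL1A1 (chromosome 17), a chain of type I collagen, the main collagen of bone and skin, stayed low, at 7.77, 7.18 and 3.60 CPM in shSOX4, against 1.18, 1.24 and 1.87 CPM in shCon (log2 2.12, SE 0.339, adjusted p = 0.00045). shSOX4 3 was the lowest of its group, and the ratio of count to FPKM varied 1.91-fold between libraries for this gene, where 52.8% of well-counted features stayed within 5%. COL27A1 (chromosome 9), a fibrillar chain of cartilage, had 10.0, 5.63 and 7.32 CPM in shSOX4, against 2.80, 2.28 and 2.19 CPM in shCon (log2 1.65, SE 0.273, adjusted p = 0.000575). COL11A2, a type XI chain, was at 1.32, 0.743 and 1.19 CPM in shSOX4, against 0.986, 1.13 and 1.40 CPM in shCon, so its groups overlapped (log2 -0.10, 95% interval -0.90 to 0.69, adjusted p = 0.851).

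All 4 fibril-associated collagens rose, where 17% of all features did, and COL9A3 reached 1 CPM throughout shSOX4 alone. COL12A1 (chromosome 6), which binds along type I fibrils, had 74.5, 92.3 and 59.6 CPM in shSOX4, against 17.5, 15.1 and 13.7 CPM in shCon (log2 2.29, SE 0.207, adjusted p = 2.43e-06). COL9A3 and COL9A2, chains of type IX collagen, a component of cartilage fibrils, were low in both groups. COL9A3 had 4.34, 3.10 and 3.60 CPM in shSOX4, against 0.548, 0.511 and 1.40 CPM in shCon (log2 2.18, adjusted p = 0.00131). For COL9A2 the values were 6.57, 4.02 and 5.18 CPM in shSOX4, against 1.36, 1.83 and 2.71 CPM in shCon (log2 1.43, adjusted p = 0.00418). In both, shCon 3 was the highest control and still lay below every shSOX4 library. COL16A1 had 2.49, 2.79 and 2.98 CPM in shSOX4, against 1.29, 1.61 and 1.43 CPM in shCon (log2 0.93, adjusted p = 0.0316). Its groups did not overlap, but the call was lost without shSOX4 2, shSOX4 3 or any single shCon library (adjusted p of 0.0616 to 0.0909).

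**Figure D2:**
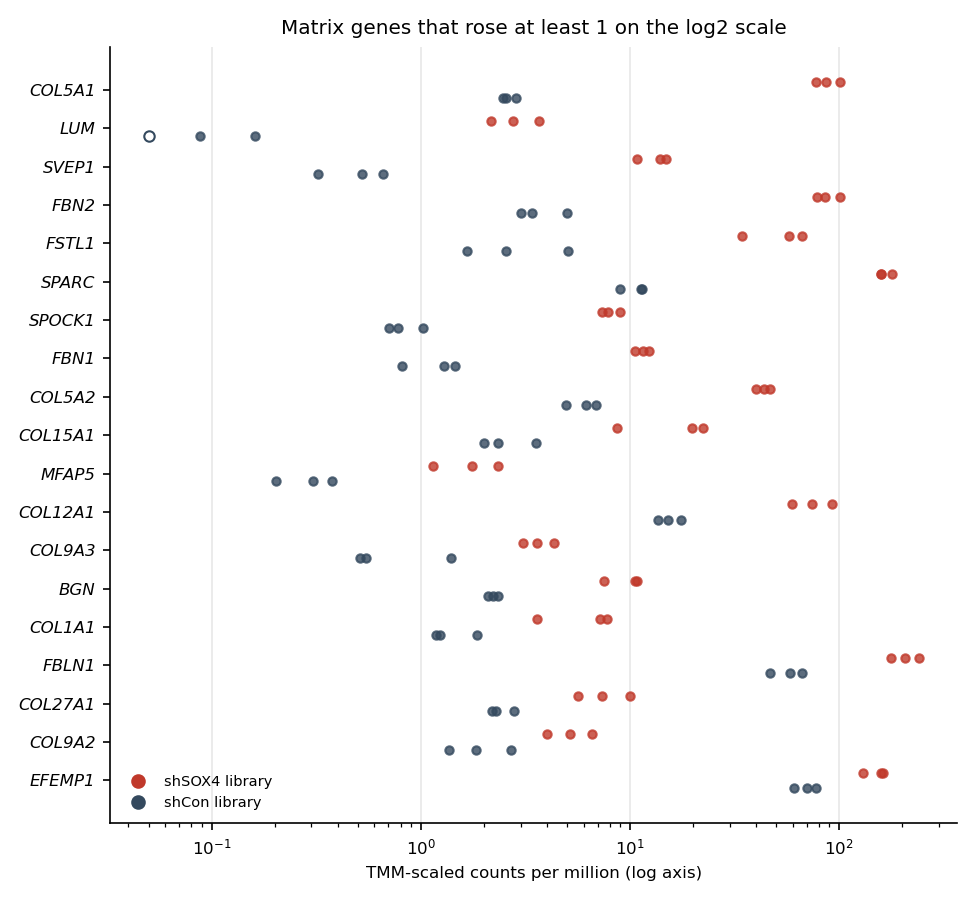
TMM-scaled CPM (x axis, log scale) in each library for the 19 matrix genes that rose by at least 1 on the log2 scale, with shSOX4 above shCon for each gene; the open circle marks the count of 0 of LUM in shCon 3, drawn at the left edge. The groups do not overlap for any of the 19.

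Collagens that form networks and beaded filaments did not rise: 2 of 4 fell, where 15.8% of all features did. Of these, COL28A1 reached 1 CPM throughout shCon alone. COL6A2 (chromosome 21), a chain of type VI collagen, which forms beaded filaments around cells, had 73.4, 52.1 and 36.5 CPM in shSOX4, against 102, 78.3 and 129.9 CPM in shCon, a fall of log2 -0.94 (SE 0.244, adjusted p = 0.0101). COL6A1 (chromosome 21), its partner chain, had 60.6, 48.7 and 43.2 CPM in shSOX4, against 56.7, 45.1 and 73.5 CPM in shCon. Its groups overlapped (log2 -0.20, 95% interval -0.64 to 0.24, adjusted p = 0.478). COL28A1, a related chain with von Willebrand domains, was near the detection limit at 0.323, 0.526 and 0.268 CPM in shSOX4, against 1.45, 1.88 and 1.14 CPM in shCon (log2 -1.99, SE 0.423, adjusted p = 0.00317). Those shSOX4 levels are 11, 17 and 9 counts, and the ratio of count to FPKM of COL28A1 varied 2.97-fold. COL8A2, a chain of short-chain network collagen, had 2.43, 1.24 and 0.804 CPM in shSOX4, against 2.63, 1.53 and 3.32 CPM in shCon (log2 -0.74, adjusted p = 0.192), and passed as lower without shSOX4 1 (-1.28, adjusted p = 0.0215).

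Among the transmembrane collagens and multiplexins, COL15A1 (chromosome 9), which links fibrils to basement membranes, rose by 2.69 (SE 0.337, adjusted p = 5.75e-05). It had 22.5, 19.9 and 8.69 CPM in shSOX4, against 2.34, 3.55 and 2.01 CPM in shCon, so shSOX4 3 was the lowest of its group and still above the controls. COL18A1, the other multiplexin and the source of endostatin, was abundant in both groups, with 117, 90.3 and 77.2 CPM in shSOX4, against 71.8, 63.4 and 100.02 CPM in shCon (log2 0.27, 95% interval -0.17 to 0.71, adjusted p = 0.323). COL13A1, a transmembrane collagen of cell contacts, had 6.54, 6.16 and 5.89 CPM in shSOX4, against 9.55, 10.1 and 12.4 CPM in shCon, and fell by 0.79 (adjusted p = 0.0115). COL17A1, the transmembrane collagen of hemidesmosomes, lay lower in every shSOX4 library (10.0, 11.8 and 13.7 CPM) than in any shCon library (15.1, 16.0 and 19.4 CPM) and did not pass in edgeR (log2 -0.51, adjusted p = 0.069). DESeq2 called it (adjusted p = 0.0461).

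The microfibril group, the largest with 17 genes, split: 6 rose, 4 fell and 7 did not pass. Over all features 17% rose and 15.8% fell, and FBN1 and MFAP5 reached 1 CPM throughout shSOX4 alone. Both fibrillins, the cores of microfibrils, rose. FBN2 (ENSG00000138829, chromosome 5), the fibrillin used mainly in development, had 85.5, 100.7 and 78.9 CPM in shSOX4, against 4.99, 3.01 and 3.41 CPM in shCon (log2 4.53, SE 0.239, 95% interval 4.02 to 5.04, adjusted p = 2.08e-08). FBN1 (chromosome 15), the fibrillin mutated in Marfan syndrome, had 11.5, 12.4 and 10.6 CPM in shSOX4, against 1.29, 1.45 and 0.816 CPM in shCon (log2 3.27, SE 0.269, adjusted p = 1.05e-06). Its ratio of count to FPKM varied 1.74-fold, and in FPKM it also had no overlap between the groups. The microfibril-associated glycoproteins went apart. MFAP5 had 2.35, 1.15 and 1.76 CPM in shSOX4, against 0.307, 0.376 and 0.204 CPM in shCon (log2 2.55, SE 0.436, adjusted p = 0.000752). It had 35 counts in all in shCon, and its ratio of count to FPKM varied 1.94-fold. MFAP2 had 4.52, 2.10 and 2.44 CPM in shSOX4, against 5.63, 5.94 and 7.67 CPM in shCon (log2 -1.08, adjusted p = 0.0148), a call lost without shSOX4 2 (adjusted p = 0.0715) or shSOX4 3 (adjusted p = 0.0656).

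Of the fibulins, calcium-binding glycoproteins of elastic fibres and basement membranes, the most abundant members rose. FBLN1 (chromosome 22) had 239.9, 207 and 177 CPM in shSOX4, against 58.2, 46.7 and 66.8 CPM in shCon (log2 1.86, SE 0.184, adjusted p = 5.66e-06). EFEMP1, fibulin-3, had 131, 163 and 159 CPM in shSOX4, against 77.3, 70.3 and 61.2 CPM in shCon (log2 1.11, SE 0.167, adjusted p = 0.000269). Neither overlapped between groups. FBLN5 (log2 0.54, adjusted p = 0.0729), FBLN7 (-0.49, adjusted p = 0.31) and EFEMP2 (-0.38, adjusted p = 0.342) did not pass, although FBLN7 was called lower without shSOX4 1 (-0.94, adjusted p = 0.0436).

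The latent TGF-beta binding proteins, some of which anchor the inactive growth factor in the matrix, differed among themselves. LTBP4 had 32.5, 25.7 and 16.6 CPM in shSOX4, against 46.0, 34.7 and 59.3 CPM in shCon (log2 -0.91, adjusted p = 0.0142), and LTBP2 had 14.7, 16.0 and 10.7 CPM in shSOX4, against 25.3, 20.9 and 25.8 CPM in shCon (log2 -0.80, adjusted p = 0.00961). Both falls were lost without shSOX4 3, the lowest library for each (adjusted p = 0.0684 for LTBP4 and 0.0547 for LTBP2). LTBP1 had 10.6, 9.78 and 5.89 CPM in shSOX4, against 5.89, 4.84 and 5.16 CPM in shCon (log2 0.72, adjusted p = 0.0398). Here shSOX4 3 lay at the top of the control range, the groups overlapped in FPKM, and the call was lost without each library except shSOX4 3 (adjusted p of 0.0583 to 0.138), and with total-count scaling, limma-voom or limma on FPKM (adjusted p = 0.063, 0.0576 and 0.141). LTBP3 did not pass (log2 -0.32, adjusted p = 0.319). EMILIN2, an elastin microfibril interface protein, had 28.2, 23.6 and 24.1 CPM in shSOX4, against 33.4, 34.0 and 48.5 CPM in shCon (log2 -0.61, adjusted p = 0.0292), a call lost without shSOX4 2, shSOX4 3 or shCon 3 (adjusted p of 0.0897 to 0.12) or in limma on FPKM (adjusted p = 0.0516). EMILIN1 (-0.19), MFAP3 (0.76) and the splicing gene MFAP1 (0.18) did not pass (adjusted p = 0.693, 0.142 and 0.525), and MFAP3 was called higher without shCon 2 (1.12, adjusted p = 0.0477). The number of falls in the microfibril group was 0 without shSOX4 3 and 2 without shSOX4 2.

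Adhesive and matricellular glycoproteins, which sit between cells and the structural matrix, rose in 7 of 10 cases and fell in 1. The shares over all features were 17% up and 15.8% down, and SVEP1 and SPOCK1 reached 1 CPM throughout shSOX4 alone. SPARC (ENSG00000113140, chromosome 5), a collagen-binding protein also called osteonectin, had 159, 158 and 178 CPM in shSOX4, against 11.3, 11.4 and 8.98 CPM in shCon (log2 3.97, SE 0.187, 95% interval 3.57 to 4.37, adjusted p = 1.67e-08). SPOCK1 (chromosome 5), a testican proteoglycan with a SPARC-like domain, had 7.83, 8.98 and 7.32 CPM in shSOX4, against 0.701, 0.779 and 1.02 CPM in shCon (log2 3.27, SE 0.281, adjusted p = 1.59e-06). Its relative SPOCK2 was at 0.566 to 1.06 CPM in shSOX4 and 0.457 to 1.22 CPM in shCon (log2 -0.19, adjusted p = 0.772), with overlapping groups. SVEP1 (chromosome 9), a large adhesion protein, had 13.9, 14.9 and 10.8 CPM in shSOX4, against 0.657, 0.322 and 0.525 CPM in shCon, where it had 60 counts in all (log2 4.70, SE 0.304, adjusted p = 1.19e-07).

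FSTL1 (chromosome 3), a secreted glycoprotein with a follistatin domain, had 34.4, 57.8 and 66.8 CPM in shSOX4, against 5.04, 2.55 and 1.66 CPM in shCon (log2 4.09, SE 0.365, adjusted p = 2.23e-06). shSOX4 1 and shCon 3, the libraries that stand apart, were the lowest of their groups, and without both the value was 4.02. FSTL3, an inhibitor of activin, was the most abundant per length of the class, with 323, 250.3 and 211 CPM in shSOX4, against 126, 119 and 182 CPM in shCon (log2 0.88, SE 0.203, adjusted p = 0.00515). The thrombospondins went apart. THBS1, which can activate latent TGF-beta, had 27.2, 34.9 and 35.2 CPM in shSOX4, against 21.8, 19.3 and 16.8 CPM in shCon (log2 0.75, adjusted p = 0.0094), a call lost without shSOX4 2 (adjusted p = 0.0542). THBS3, of the pentameric subgroup, had 11.5, 11.8 and 8.22 CPM in shSOX4, against 20.8, 16.2 and 25.9 CPM in shCon, and fell by 0.998 (SE 0.226, adjusted p = 0.00471). THBS4, of the same subgroup, was lower without overlap and did not pass (log2 -0.79, adjusted p = 0.0998). FN1, fibronectin, a ligand of many integrins, was modest in level. It had 12.3, 12.9 and 7.59 CPM in shSOX4, against 7.21, 5.67 and 5.74 CPM in shCon (log2 0.81, SE 0.242, adjusted p = 0.0199). Its call was lost without shSOX4 2 (adjusted p = 0.0976) or shCon 2 (adjusted p = 0.0642). In FPKM its groups overlapped, with 0.791 in shSOX4 3 and 0.793 in shCon 1.

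Of 6 proteoglycans and nidogens, 2 rose and 1 fell, where 17% and 15.8% of all features did. LUM reached 1 CPM throughout shSOX4 alone. Both rises were in small leucine-rich proteoglycans, which bind collagen fibrils. LUM (chromosome 12), lumican, had 125, 89 and 73 counts in shSOX4, against 4, 6 and 0 counts in shCon. Scaled, these are 3.67, 2.75 and 2.17 CPM in shSOX4, against 0.0876, 0.161 and 0 CPM in shCon (log2 5.02, SE 0.579, 95% interval 3.78 to 6.26, adjusted p = 2.55e-05). With 10 control counts in all, the size of this rise is loosely set, and the authors' deposited table gives 3.64 for it. BGN (chromosome X), biglycan, had 10.8, 10.6 and 7.53 CPM in shSOX4, against 2.21, 2.10 and 2.33 CPM in shCon (log2 2.12, SE 0.245, adjusted p = 2.6e-05). The large heparan sulfate proteoglycans were abundant in both groups. AGRN, agrin, had 385, 322 and 264 CPM in shSOX4, against 291, 239 and 405 CPM in shCon (log2 0.05, 95% interval -0.38 to 0.48, adjusted p = 0.862). HSPG2, perlecan, had 194, 198 and 118 CPM in shSOX4, against 115, 99.7 and 149 CPM in shCon (log2 0.49, adjusted p = 0.0913). It was called higher without shSOX4 3 (0.70, adjusted p = 0.0227), without shCon 3 (0.66, adjusted p = 0.025) and without both shSOX4 1 and shCon 3 (0.56, adjusted p = 0.0238). NID1, a nidogen that bridges laminin and type IV collagen, had 17.2, 14.3 and 9.44 CPM in shSOX4, against 29.5, 22.4 and 20.6 CPM in shCon (log2 -0.82, adjusted p = 0.0169), lost without shSOX4 2, shSOX4 3 or shCon 1 (adjusted p of 0.0526 to 0.0866). NID2 did not pass (0.73, adjusted p = 0.171) and was called higher without shCon 1 (1.22, adjusted p = 0.0431).

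The 12 crosslinking and modifying enzymes changed least in size: 3 rose, 4 fell, and every log2 fold change lay between -0.95 and 0.92. Over all features 17% rose and 15.8% fell. TGM2 (chromosome 20), tissue transglutaminase, the most abundant per length of the 62 genes, had 906, 732 and 654 CPM in shSOX4, against 1261, 1115 and 1595 CPM in shCon, and fell by 0.79 (SE 0.174, adjusted p = 0.00388). The lysyl oxidases differed within the family. LOX had 8.01, 8.91 and 6.01 CPM in shSOX4, against 4.88, 3.95 and 3.26 CPM in shCon (log2 0.92, adjusted p = 0.013), a call lost without shSOX4 2 (adjusted p = 0.0691) or when FPKM values were tested by limma instead (adjusted p = 0.065). LOXL2, the most abundant lysyl oxidase per length, had 199, 164 and 159 CPM in shSOX4, against 245, 218 and 303 CPM in shCon (log2 -0.55, adjusted p = 0.0242). LOXL3 had 3.46, 2.54 and 3.66 CPM in shSOX4, against 4.78, 5.21 and 8.75 CPM in shCon (log2 -0.95, adjusted p = 0.0218), and its ratio of count to FPKM varied 1.51-fold. LOXL4 had 9.01, 5.23 and 6.16 CPM in shSOX4, against 11.6, 11.1 and 12.4 CPM in shCon (log2 -0.78, adjusted p = 0.0197). The groups did not overlap for any of these 4. Each of these falls depended on single libraries: LOXL2 was lost without shSOX4 2, shSOX4 3 or shCon 3 (adjusted p of 0.0623 to 0.108), LOXL3 without shSOX4 2, without shCon 3 or without both shSOX4 1 and shCon 3 (0.0939, 0.116 and 0.0781), and LOXL4 without shSOX4 2 or shSOX4 3 (0.105 and 0.0782). LOXL1 was lower without overlap and did not pass (-0.49, adjusted p = 0.176).

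Among the hydroxylases PLOD2, the lysyl hydroxylase that acts on collagen telopeptides, had 78.5, 82.3 and 62.8 CPM in shSOX4, against 43.8, 47.3 and 44.9 CPM in shCon (log2 0.72, SE 0.172, adjusted p = 0.00643), and 0.64 without shSOX4 2 (adjusted p = 0.0506). Its relatives PLOD1 (0.10, adjusted p = 0.689) and PLOD3 (0.28, adjusted p = 0.259) did not pass, and PLOD3 passed without both shSOX4 1 and shCon 3 (0.36, adjusted p = 0.0457). P4HA1, a catalytic subunit of prolyl hydroxylase, had 25.0, 26.7 and 26.0 CPM in shSOX4, against 21.4, 17.3 and 15.3 CPM in shCon (log2 0.53, adjusted p = 0.0463). This call was lost without each library except shCon 1 (adjusted p of 0.0504 to 0.151), with total-count scaling (0.0778), in limma on FPKM (0.0683) and without newGene loci, the unnamed loci of the table (0.0508). P4HA2 (-0.13, adjusted p = 0.62) and P4HA3 (-0.74, adjusted p = 0.0634) did not pass. The P4HA3 groups did not overlap, with shSOX4 below, and DESeq2 called it lower (adjusted p = 0.0488). In all, the enzyme class had 0 rises and 1 fall without shSOX4 2, and 2 falls without shSOX4 3 or without shCon 3.

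**Figure D3:**
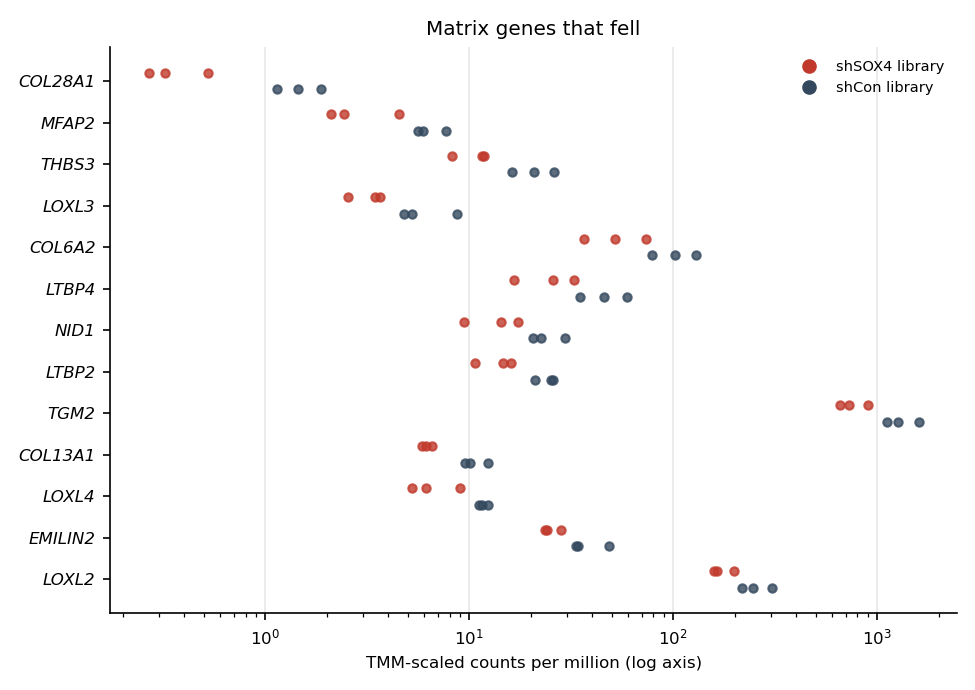
TMM-scaled CPM (x axis, log scale) in each library for the 13 matrix genes that fell, with shSOX4 above shCon for each gene. The groups do not overlap for any of the 13 but lie close together, from TGM2 at 654 to 1595 CPM down to COL28A1 at 0.268 to 1.88 CPM.

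Levels per length, in the authors' FPKM, were summed over the genes of each class, so a sum can rest on its most abundant genes. The summed FPKM of the fibril-forming collagens was 18.0 ± 2.13 in shSOX4 and 1.77 ± 0.140 in shCon (SD, n = 3 each). The fibril-associated collagens summed to 9.89 ± 1.27 FPKM in shSOX4 and 2.39 ± 0.120 FPKM in shCon. For the microfibril group the sums were 195 ± 21.4 FPKM in shSOX4 and 109 ± 7.60 FPKM in shCon, and for the adhesive glycoproteins 161 ± 17.1 FPKM in shSOX4 and 66.4 ± 9.25 FPKM in shCon. In these 4 classes the libraries of the 2 groups did not overlap. Enzymes summed to 292 ± 38.1 FPKM in shSOX4 and 400.3 ± 44.3 FPKM in shCon, also without overlap, of which TGM2 alone held 141 ± 23.1 FPKM in shSOX4 and 241 ± 31.2 FPKM in shCon. The groups overlapped in the network collagens (26.3 ± 6.96 FPKM in shSOX4 and 41.3 ± 8.02 FPKM in shCon), the transmembrane and multiplexin collagens (22.1 ± 4.14 FPKM in shSOX4 and 20.1 ± 2.71 FPKM in shCon) and the proteoglycans (60.0 ± 12.4 FPKM in shSOX4 and 52.3 ± 9.11 FPKM in shCon).

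**Figure D4:**
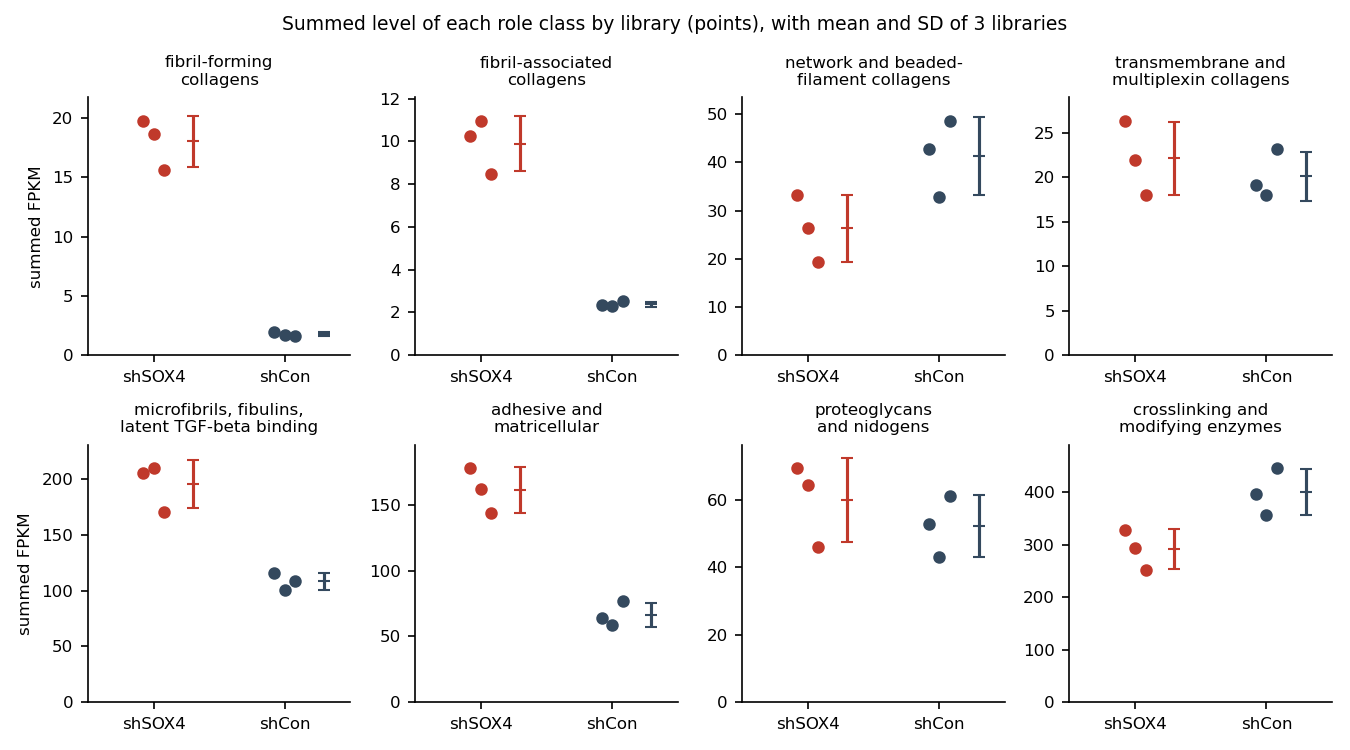
Summed FPKM of the genes in each role class (y axis, starting at 0) for each library, with the mean and SD of 3 libraries beside the points. Fibril-forming collagens sum to 15.6 to 19.8 FPKM in shSOX4 and 1.65 to 1.93 FPKM in shCon, and the enzymes run the other way.

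TGM2 had the highest level per length in both groups, and the order of the genes after it differed. In shSOX4 the highest mean levels were TGM2, FSTL3 (99.5 ± 21.3 FPKM), FBLN1 (79.9 ± 12.0 FPKM), EFEMP1 (52.9 ± 8.09 FPKM), LOXL2 (46.5 ± 5.31 FPKM) and SPARC (41.7 ± 2.27 FPKM). In shCon they were TGM2, LOXL2 (67.8 ± 7.55 FPKM), FSTL3 (53.2 ± 9.14 FPKM), AGRN (39.3 ± 8.37 FPKM), PLOD1 (27.9 ± 3.23 FPKM) and COL6A2 (27.7 ± 5.52 FPKM). Neighbours in these orders that differed by less than the larger of their SDs were FSTL3 and FBLN1, EFEMP1 and LOXL2, and LOXL2 and SPARC in shSOX4, and PLOD1 and COL6A2 in shCon. Next in order came AGRN in shSOX4 (41.4 ± 7.73 FPKM) and EFEMP1 in shCon (25.3 ± 4.05 FPKM). Each lay below the gene before it by less than the larger of their SDs. SPARC stood at 2.66 ± 0.491 FPKM in shCon. Even after its rise COL1A1 was at 1.38 ± 0.428 FPKM in shSOX4, against 0.238 ± 0.116 FPKM in shCon, far below COL5A1 at 9.77 ± 1.30 FPKM in shSOX4, against 0.287 ± 0.0375 FPKM in shCon.

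Related chains did not move in step, which shows in their ratio within a library. These 8 pairs were chosen after their values were seen, and 3 libraries against 3 cannot give an exact permutation p below 0.1, so the ratios are given as description. COL5A1 over COL5A2 was 1.94, 1.54 and 1.61 in shSOX4, against 0.348, 0.345 and 0.416 in shCon, so the gene with the higher FPKM differed between the groups. COL6A1 over COL6A2 was 0.671, 0.759 and 0.958 in shSOX4, against 0.451, 0.467 and 0.460 in shCon. FBN2 over FBN1 was 8.09, 9.20 and 8.60 in shSOX4, against 3.72, 1.59 and 2.44 in shCon. THBS1 over THBS3 was 0.957, 1.20 and 1.72 in shSOX4, against 0.420, 0.482 and 0.261 in shCon. LOX stayed a small fraction of LOXL2 in both groups, at 0.0289, 0.0396 and 0.0281 in shSOX4, against 0.0155, 0.0142 and 0.00852 in shCon. FSTL1 over FSTL3 was 0.0451, 0.0969 and 0.130 in shSOX4, against 0.0172, 0.00875 and 0.00376 in shCon. PLOD2 over PLOD1 was 0.563, 0.722 and 0.562 in shSOX4, against 0.446, 0.467 and 0.334 in shCon. None of the 8 ratios overlapped between the groups. COL9A2 over COL9A3 was the one pair of the 8 with the lower ratio in shSOX4, at 1.14 to 1.32, against 1.69 to 3.18 in shCon.

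**Figure D5:**
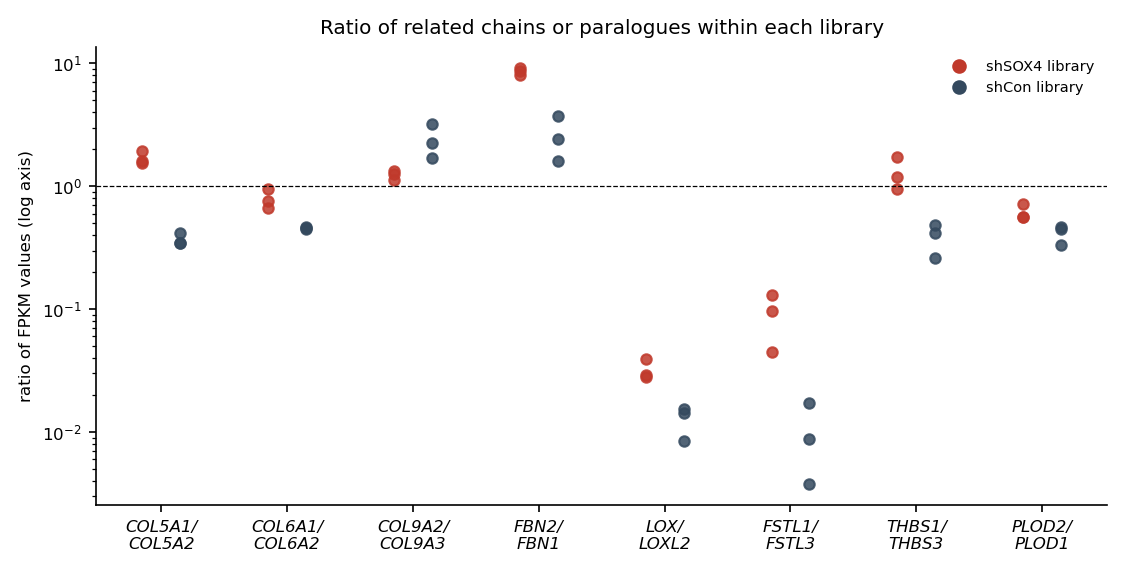
Ratio of the FPKM values of related chains or paralogues within each library (y axis, log scale), with shSOX4 left of shCon for each pair and a dashed line at equal levels. COL5A1 exceeds COL5A2 in the shSOX4 libraries (1.54 to 1.94) and is below it in the shCon libraries (0.345 to 0.416).

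The genes are spread over the genome, with 9 on chromosome 1 and 7 each on chromosomes 2 and 5. Promoter sequences in RefSeq (GRCh38.p14, 250 bases before to 50 after the start) were found for 48 of the 62. They are shown for the 3 genes with the smallest adjusted p, which rose together, and for COL15A1, the largest rise whose promoter holds the core SOX motif ACAAAG. Capitals mark GGGCGG (the GC box) or ACAAAG, either as written or as the reverse complement. COL5A1 is at chr9:134641553-134641852 on the plus strand, FBN2 at chr5:128538196-128538495 and SPARC at chr5:151686866-151687165 on the minus strand, and COL15A1 at chr9:98943657-98943956 on the plus strand.
COL5A1: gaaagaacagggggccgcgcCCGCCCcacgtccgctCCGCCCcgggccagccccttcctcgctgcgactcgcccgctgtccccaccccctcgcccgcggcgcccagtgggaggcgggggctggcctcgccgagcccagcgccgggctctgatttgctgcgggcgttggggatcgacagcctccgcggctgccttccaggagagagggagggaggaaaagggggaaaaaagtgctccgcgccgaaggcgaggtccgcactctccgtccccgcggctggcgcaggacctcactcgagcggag
FBN2: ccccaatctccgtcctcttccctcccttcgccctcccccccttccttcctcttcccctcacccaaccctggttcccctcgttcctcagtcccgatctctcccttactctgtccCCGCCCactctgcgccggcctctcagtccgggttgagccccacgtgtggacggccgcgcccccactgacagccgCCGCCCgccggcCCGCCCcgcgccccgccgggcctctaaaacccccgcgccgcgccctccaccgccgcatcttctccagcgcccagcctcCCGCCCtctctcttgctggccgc
SPARC: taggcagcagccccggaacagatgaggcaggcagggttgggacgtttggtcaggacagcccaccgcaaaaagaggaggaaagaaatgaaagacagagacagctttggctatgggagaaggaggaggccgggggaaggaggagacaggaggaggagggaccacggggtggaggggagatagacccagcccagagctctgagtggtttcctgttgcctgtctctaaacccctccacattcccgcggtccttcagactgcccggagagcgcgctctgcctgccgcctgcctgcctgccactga
COL15A1: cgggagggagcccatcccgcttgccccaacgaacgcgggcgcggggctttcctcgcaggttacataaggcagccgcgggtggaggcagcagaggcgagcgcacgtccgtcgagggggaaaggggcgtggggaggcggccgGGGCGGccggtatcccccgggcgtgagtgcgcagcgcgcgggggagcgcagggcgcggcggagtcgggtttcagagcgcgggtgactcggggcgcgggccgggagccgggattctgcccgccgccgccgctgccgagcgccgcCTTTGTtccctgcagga
ACAAAG, on either strand, was in the promoters of 7 of the 48 genes (14.6%), where 12.8% of 15843 protein-coding promoters hold it. Those were COL9A2, COL15A1 and LTBP1, which rose, MFAP2 and THBS3, which fell, and COL17A1 and HSPG2, which did not pass. Among genes that rose it was 3 of 19 (15.8%) and among those that fell 2 of 11 (18.2%). GGGCGG was in 15 of the 19 (78.9%) and in 7 of the 11 (63.6%), against 58.5% of all, and TATAAA in 2 of each (10.5% and 18.2%, against 9.63%). Median GC content was 71.7% for genes that rose, 64.0% for those that fell and 62.7% for all promoters. SPARC held none of the 3 motifs in this window. A match is a description of the letters only.

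The machinery around these genes was read from lists of related genes in the same fit. Of 20 measured genes for collagen folding, secretion and processing, 6 rose and 4 fell, with a median log2 fold change of -0.01. PCOLCE, which enhances removal of the procollagen end piece, had 118, 98.3 and 86.9 CPM in shSOX4, against 14.2, 12.3 and 18.5 CPM in shCon (log2 2.75, SE 0.208, adjusted p = 4.68e-07). TLL1, a procollagen protease, rose by 2.83 (adjusted p = 0.00104), with 1.92 to 2.82 CPM in shSOX4 and 0.0583 to 0.526 CPM in shCon. P3H2, a prolyl 3-hydroxylase, rose by 1.40 (adjusted p = 0.000169) and PPIB, a prolyl isomerase of the endoplasmic reticulum, by 0.85 (adjusted p = 0.00111).

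Of 19 other matrix proteins 10 rose and 6 fell, with a median of 0.83. PXDN, peroxidasin, which crosslinks type IV collagen, had 122, 116 and 98.0 CPM in shSOX4, against 11.7, 8.95 and 10.6 CPM in shCon (log2 3.42, SE 0.193, adjusted p = 3.6e-08). The adhesive protein gene VTN, vitronectin, rose by 3.39 (adjusted p = 1.48e-07), FMOD, fibromodulin, a further small leucine-rich proteoglycan, by 2.97 (adjusted p = 2.13e-06) and SMOC1, a relative of SPARC, by 2.19 (adjusted p = 2.63e-06). Without shSOX4 2, 1 of these 19 fell, and without shSOX4 3, 3 fell.

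Of 6 collagen receptors 3 rose and none fell, with a median of 0.56. DDR2, a receptor kinase for fibrillar collagen, had 9.21, 10.4 and 9.50 CPM in shSOX4, against 0.920, 0.806 and 1.17 CPM in shCon (log2 3.33, SE 0.264, adjusted p = 7.42e-07). ITGA1, a collagen-binding integrin chain, rose by 2.41 (adjusted p = 0.00297), and MRC2, which takes up collagen, by 0.85 (adjusted p = 0.0125). The groups overlapped for MRC2, with 54.9185 CPM in shSOX4 3 and 54.9212 CPM in shCon 3. ITGB1, the partner chain of the collagen-binding integrins, averaged 452 CPM in shSOX4 and 438 CPM in shCon (log2 0.04, adjusted p = 0.865). Of 13 receptors for fibronectin, thrombospondin and perlecan 4 rose and 4 fell (median -0.08), with the syndecan gene SDC2 up by 2.05 (adjusted p = 8.52e-06), ITGAV by 1.12 (adjusted p = 0.00134) and the dystroglycan gene DAG1 by 0.65 (adjusted p = 0.00703), and ITGA3 down (-0.76, adjusted p = 0.00749). Of 7 TGF-beta ligands and receptors 5 rose and none fell (median 1.15). ENG, endoglin, rose by 3.08 (adjusted p = 1.94e-06), TGFB2 by 1.15 (adjusted p = 0.00173), TGFBR3 by 1.62 (adjusted p = 0.00623) and TGFB3 by 1.28 (adjusted p = 0.0184). The filter on the deposited table bears on these lists too: DDR2 and ITGA1 of the 3 collagen receptors that rose, TGFBR3 and TGFB3 of the 5 TGF-beta genes, FMOD, NPNT and IGFBP7 of the 10 other matrix proteins and TLL1 of the 6 processing genes reached 1 CPM throughout shSOX4 alone. For such genes the filter favours a higher level there, so it bears on these counts and medians, and no direction is drawn from them. At 1 CPM or more in all 6 libraries, 1 collagen receptor rose and 3 did not pass, and 3 TGF-beta genes rose and 2 did not pass. Of the other matrix proteins at that level 7 rose and 6 fell, and of the processing genes 5 rose and 4 fell. No test was made of these lists as a whole, and 32.8% of all features were called.

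In the remaining marker lists, 2 epithelial genes rose and 3 fell of 9 measured. The keratin genes KRT8 (log2 1.33, adjusted p = 3.98e-05) and KRT18 (1.03, adjusted p = 0.000406) rose. KRT8 averaged 4603 CPM in shSOX4 and 1828 CPM in shCon, and KRT18 2274 CPM in shSOX4 and 1113 CPM in shCon. The tight junction gene CLDN4 (-1.58, adjusted p = 0.000131), the E-cadherin gene CDH1 (-1.28, adjusted p = 0.0029) and EPCAM (-0.83, adjusted p = 0.0279) fell, at much lower levels, with 13.3, 3.88 and 6.28 CPM on average in shSOX4, against 39.8, 9.42 and 11.2 CPM in shCon. The groups overlapped for EPCAM, with 7.382 CPM in shSOX4 3 and 7.375 CPM in shCon 3. Of 3 measured smooth muscle markers TAGLN rose by 1.60 (adjusted p = 1.76e-05), with 82.7 to 88.97 CPM in shSOX4 and 24.7 to 33.4 CPM in shCon. ACTA2 (0.65, adjusted p = 0.107) and SMTN (-0.44, adjusted p = 0.0966) did not pass. CDH5, the 1 measured of 7 endothelial markers, rose by 3.01 (adjusted p = 1.23e-05) at 4.70 to 6.62 CPM in shSOX4 and 0.525 to 0.942 CPM in shCon, and it too entered the table through shSOX4 alone. Of 2 measured leukocyte markers CD68 fell by 1.17 (adjusted p = 0.000171), and CD14 did not pass (0.41, adjusted p = 0.449). The part of any of these in the matrix results was not tested.

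In the authors' deposited table, 27 of the 62 genes are called up and 15 down at the same threshold, and all 40 called here are called there with the same sign. The other 2 are COL17A1 (-0.48) and P4HA3 (-0.66). The authors' deposited table gives a smaller size for each of the 40, such as 4.85 for COL5A1, 3.84 for SPARC, 3.07 for FSTL1, 4.24 for SVEP1 and -1.52 for COL28A1.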

How the data were processed

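RNA-seq of 3 shSOX4 and 3 shCon libraries was used. Per the labels' protocols, libraries were made from poly-A RNA and read from both ends. The submitters' processing notes list the aligners HISAT2, STAR and Bowtie2 with no roles, and the build hg19; counter and strand setting were not given in the sources used here. Deposited counts in the table are per gene, whole and not normalized, per the file headers. Its FPKM columns were made by the authors, per the file headers, by scaling to length and depth. The deposited p-value column (a false discovery rate) and log2 fold change come from a tool not named in these sources. Column names NC and SH were read as shCon and shSOX4. A gene's count divided by its FPKM varied by more than 5% between libraries, after a common factor, for all but 52.8% of features with at least 100 counts in every library.

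Counts were tested with edgeR 4.0.16 in R 4.3.3 (TMM, filterByExpr, which removed 0 features, quasi-likelihood F test, two-sided, group only). P-values were Benjamini-Hochberg adjusted over all 13527 features, and an adjusted p under 0.05 is a call. The SE is the log2 fold change over the root of F, and 95% intervals use the fit's degrees of freedom. The fit was tested on simulated data. Alternatives were RLE and total-count scaling, other filters, DESeq2 1.42.0, limma-voom and limma 3.58.1 on log2(FPKM + 1) with mean FPKM of at least 1, a replicate block, leaving out libraries, and leaving out 1116 newGene loci.

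The members, gene lists and roles were chosen with earlier results of these data known. Every member is named; values in each library are given for called members, and up to 4 called genes of each further list, those with the smallest adjusted p, are named. ITGB1, EPCAM, NPNT, IGFBP7, ACTA2, SMTN and CD14 were added after their values were seen. The labels do not state separate cultures, so the p-values reflect only how far these libraries differ, possibly for technical reasons. Within groups, chi-square over its degrees of freedom was 28.7 to 139, and no library was a duplicate. Chromosomes and promoters come from RefSeq GRCh38.p14, and genes with close copies or overlapping neighbours are uncertain in how reads were divided.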

Additional observations from a re-analysis of the deposited data

How the results depend on the processing

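Of the 40 matrix genes called, 25 kept their direction and call in every one of the 16 alternatives that gave a value, and of the 22 not called 9 stayed so without a change of sign. In the fits that left out 1 library, 20 of the 27 rises and 5 of the 13 falls were called in all 6. Leaving out 1 library gave 27 to 40 matrix genes called, 20 to 26 rises, and 6 to 15 falls, lowest without shSOX4 3, while over all features 2509 to 4966 were called, 1411 to 2653 up and 1098 to 2313 down, lowest without shSOX4 2. With limma on log2(FPKM + 1), 45 of the 62 genes were high enough to test, and 25 were called. Of the 45, 14 rose (31.1%, against 13.8% of all features tested there) and 11 fell (24.4%, against 15.9%). Fewer genes were tested there and low genes have smaller values on that scale. Direction changed for 5 genes that were never called in the main comparison: AGRN (-0.08 without shSOX4 1 and -0.11 without shCon 2; range -0.11 to 0.29), P4HA2 (range -0.20 to 0.0105), SPOCK2 (range -0.51 to 0.0442), COL11A2 (range -0.26 to 0.10) and MFAP1 (-0.0446 without both shSOX4 1 and shCon 3). The cause was not tested.

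With the replicate number as a block, 36 matrix genes were called (25 up and 11 down) and 3374 features; P4HA1, LOXL2, EMILIN2, LTBP1 and COL16A1 lost their calls (adjusted p = 0.125, 0.0668, 0.0878, 0.0701 and 0.0728) and MFAP3 gained one (adjusted p = 0.0476). The numbers do not pair the libraries: the deviations of same-numbered libraries from their group means correlated at -0.29, 0.16 and -0.29, and 0 of 6 libraries correlated best with its own number. Genes with few counts, such as LUM, COL28A1 and SPOCK2, are limited by depth.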
